A study of Mus musculus with 6 samples.

Results

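Cytosolic ribosomal protein genes encode the proteins that, with ribosomal RNA, make up the cell's protein-synthesising particles. They were taken here by name from a RefSeq gene table, as protein-coding mouse symbols made of Rpl or Rps and a number, with Rplp0, Rplp1, Rplp2 and Rpsa. Pseudogenes, non-coding entries and the kinases of the Rps6k family were left out. Of 411 matching symbols, 312 were left out as pseudogene or non-coding, 10 as Rps6k, and 89 remained of 49997 genes in the table. Probes on the array matched 85 of the 89, and 82 were bright enough to be tested, among 13582 genes tested in all. The 82 were 43 proteins of the large subunit, 30 of the small subunit, 3 of the stalk, 4 paralogues (Rpl22l1, Rpl36al, Rpl7l1 and Rps27l) and 2 genes that only carry a ribosomal protein's name (Rps19bp1 and Rps23rg1). Rpl3l was above background on none of the 6 arrays, and Rpl10l and Rpl39l on at most 1. Rpl32l, Rpl37rt, Rps23 and Rps27rt were not matched to a probe.

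The samples were right-lobe liver of male C57BL/6J mice. Surgery had been done 3 days before: in 3 samples the portal vein's left branch was tied off (PVBL), and 3 came from a sham operation. All mice were of this 1 strain, with no genetic change or other agent in the labels, and the right lobe kept its own portal branch. The labels do not say that each sample was a separate animal, so the error behind each p-value is that between arrays and could be technical in part. RNA was whole-tissue RNA, so fewer cells of a type and less RNA per cell cannot be told apart.

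Each ribosome has a small subunit, which reads the messenger RNA, and a large subunit, which joins amino acids, and carries 1 copy of nearly every ribosomal protein. Growing cells make these proteins in matched amounts, and in mammals much of that control acts on translation. The messenger RNAs typically begin with a C followed by a run of C and T bases, the terminal oligopyrimidine (TOP) motif, through which growth signals and Larp1 govern their translation. An array reads the amount of messenger RNA and not its translation.

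The region around the start sites is shown for the genes that the results below turn on and for a pair of well-known subunit proteins. The sequences are from RefSeq, assembly GRCm38.p6, and run from 60 bases before to 20 bases after the annotated start, read along the gene's strand. Capitals mark the longest run of C and T with a base within 20 bases of the start, where it had at least 6 bases. Of equally long runs the first is marked. Rps27 lies at chr3:90213629-90213708 (minus strand), Rps27l at chr9:66946026-66946105 (plus), Rpl22 at chr4:152325666-152325745 (plus), Rpl22l1 at chr3:28805448-28805527 (plus), Rps6 at chr4:86857348-86857427 (minus) and Rpl28 at chr7:4792905-4792984 (plus).
Rps27: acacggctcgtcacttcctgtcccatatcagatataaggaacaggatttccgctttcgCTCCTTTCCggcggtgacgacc
Rps27l: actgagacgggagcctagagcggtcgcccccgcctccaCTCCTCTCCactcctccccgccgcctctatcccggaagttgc
Rpl22: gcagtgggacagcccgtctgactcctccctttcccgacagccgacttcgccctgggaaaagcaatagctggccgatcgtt
Rpl22l1: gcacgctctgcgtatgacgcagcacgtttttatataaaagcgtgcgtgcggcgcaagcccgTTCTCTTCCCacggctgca
Rps6: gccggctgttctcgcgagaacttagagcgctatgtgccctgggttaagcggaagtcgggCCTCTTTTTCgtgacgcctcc
Rpl28: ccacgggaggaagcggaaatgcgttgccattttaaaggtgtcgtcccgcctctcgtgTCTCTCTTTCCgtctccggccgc

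Rps27, Rpl22l1, Rps6 and Rpl28 each had such a run at or next to the start. In the window shown for Rps27l the marked run lay upstream. A second run of the same length, left unmarked, lay between it and the start. Rps27l and Rpl22 each had 2 windows. The one not shown for Rps27l and both of Rpl22 had no run of 6 or more with a base within 20 bases of the start. In the window shown for Rpl22 a longer run lay farther upstream and was not counted. Windows were given for 62 of the 82 tested genes. A run of at least 6 C or T with a base within 20 bases of the start was present in 43 of the 62 (69.4%), against 47.8% of 27025 genes with a window and 46.8% of 10834 tested genes. The median longest run was 9 bases in the ribosomal protein genes and 5 in all genes. The annotated first base was C or T in 51.6% of them, in 33.2% of all genes and in 28.4% of tested genes.

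Short motifs were searched on both strands of the longer window from 250 bases before to 50 after the start. CGGAAG, the core of the sites that ETS-family factors such as Gabpa bind, was found in 43 of 62 (69.4%), against 18.8% of all genes and 31.8% of tested genes. TCGCGA was found in 14 of 62 (22.6%), against 2.86% of all and 5.24% of tested genes. AAGATGG, a core of Yy1 sites, was in 16.1%, against 7.28% of all and 8.05% of tested genes. GGGCGG, an Sp1-type GC box, was in 62.9%, against 38.2% of all and 63.6% of tested genes. TATAAA was in 11.3%, against 15.7% of all and 10.3% of tested genes, and CACGTG in 9.68%, against 8.09% and 11.1%. CGGAAG and TCGCGA cannot overlap each other, but the reverse of CGGAAG can lie partly in a run of C and T. A match describes the letters and is no evidence of binding. The 43 genes with a C/T run had a median log2 difference between PVBL and sham of -0.15 and the 19 without one of -0.21, so both sets lay close to the median of -0.18 over all 82.

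Levels below are log2 of the array's processed signal minus the 75th percentile of that array, so a level of 8 means a signal far above that of most probes, and a difference is PVBL minus sham. Genes were called when limma's p-value, adjusted over all genes tested, was under 0.05. The 75th percentile of signal was 331 to 407 on the PVBL arrays and 203 to 315 on the sham arrays, with 0 saturated spots. The sham arrays lay in row 1 and the PVBL arrays in row 2 of 1 slide, so position on the slide and surgery cannot be told apart. All 82 genes were above background on all 6 arrays, 78 were among the 1000 brightest genes and 25 among the 200 brightest.

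Ribosomal protein messenger RNAs differed little between the regenerating and the sham lobes. Rps27, Rpl36 and Rps14 fell, and no ribosomal protein gene rose. That was 3 of 82 called (3.66%), against 33.0% of all genes tested, of which 15.1% were higher and 17.8% lower. At an unadjusted p under 0.05, 11 of the 82 (13.4%) were lower and 0 higher, against 25.8% and 19.7% of all genes. The median difference was -0.18, with 70 genes below 0 and 12 above, and the median of all genes was -0.10. The differences ran from -0.73 to 0.36. No ribosomal protein gene differed by as much as 2-fold, as 12.3% of all genes did.

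The differences also lay close to each other. Their interquartile range was 0.197 on the log2 scale, against 0.704 for all genes. The typical error was similar, with a median SE of 0.146 for the ribosomal protein genes and 0.160 for all genes. For 57 of 82 (69.5%) the 95% interval of the difference lay within 1.5-fold in either direction, against 28.8% of all genes. For 80 of 82 it lay within 2-fold, against 66.8%, and the exceptions were Rps27 and Rpl36al. These interval counts hold only for the scaling defined above and leave out the uncertainty in the choice of scaling. With scaling on spiked control RNA, described below, 5 of the 82 genes differed by more than 1.5-fold. That number was 1 with the scaling used here, with median scaling and with quantile scaling. Among 451 other genes at least as bright as the 25th percentile of the ribosomal protein genes, 38.4% were called, 17 higher and 156 lower, with a median of -0.43.

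**Figure D1:**
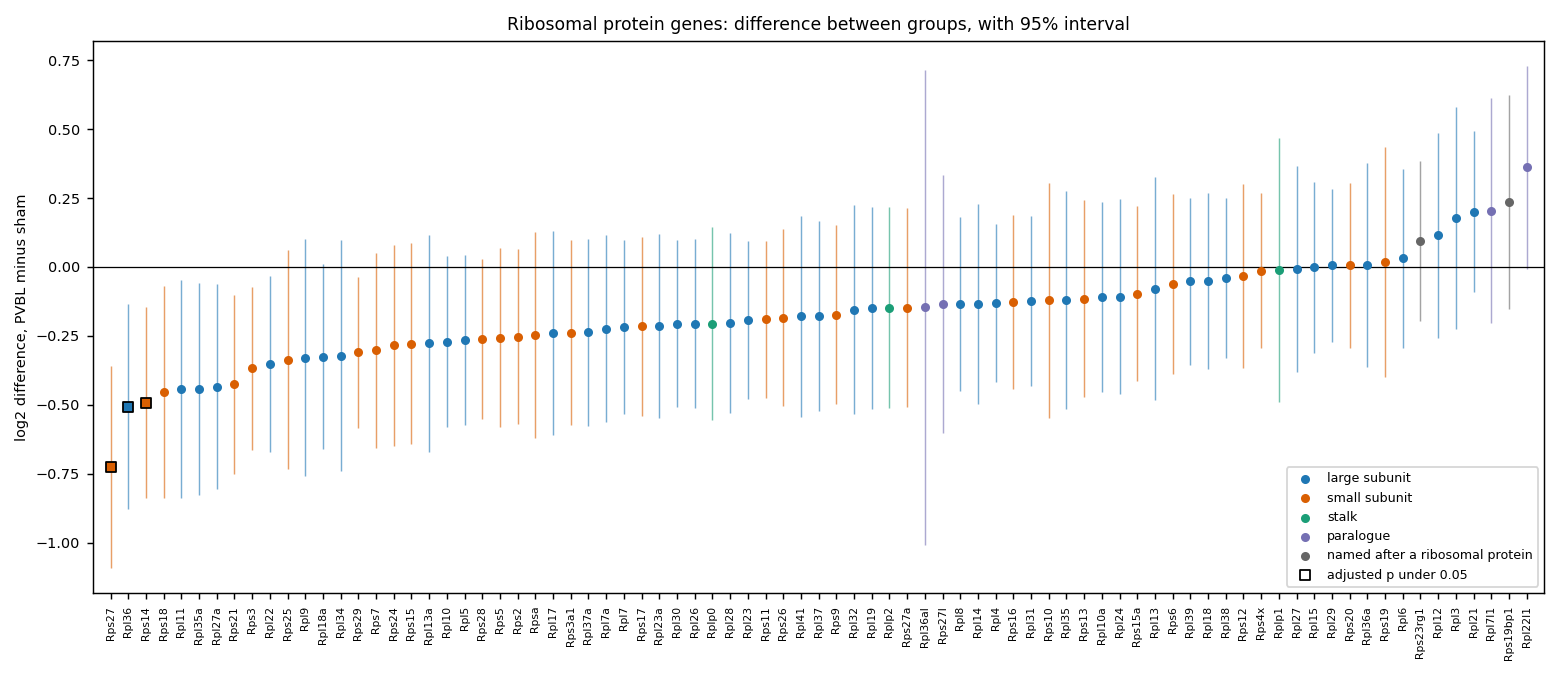
Log2 difference, PVBL minus sham (vertical axis), of the tested genes reported by name, in order (horizontal axis), coloured by role, with bars for the 95% interval. Squares mark the 3 genes with an adjusted p under 0.05. Rps27 stands at the low end at -0.73 and Rpl22l1 at the high end at 0.36, and most genes lie below 0.

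The levels of PVBL and sham did not overlap in 19 of 82 genes (23.2%), against 51.4% of all genes. Of these, 17 were lower after PVBL (29.1% of all genes were) and 2 higher, Rpl21 and Rpl22l1 (22.3% of all genes were). In the other 63 genes at least 1 PVBL array lay within the range of the sham arrays or beyond it.

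In the small subunit, 2 of 30 genes were called, both lower, and the median was -0.23. Rps27, a zinc-finger protein of the small subunit, changed most of all 82. Its levels were 8.02, 8.36 and 8.09 on PVBL arrays 1 to 3 and 8.81, 8.74 and 9.11 on sham arrays 1 to 3. Every PVBL array was below every sham array. The groups were separate before any scaling too, with processed signals of 105995, 108725 and 92944 after PVBL and 140821, 128845 and 112323 after sham surgery. The difference was -0.73 ± 0.16 (SE, n = 3 per group), or 1.65-fold lower, with a 95% interval from -1.09 to -0.36 and an adjusted p of 0.0134 in limma's fit. Rps14, which sits near the messenger RNA exit of the small subunit, had levels of 9.35, 9.67 and 9.34 after PVBL and 9.88, 9.85 and 10.11 after sham surgery. It was the brightest of the 82, and its groups were separate, with PVBL 2 nearest the sham arrays. Its difference was -0.49 ± 0.15 (SE, n = 3 per group; limma's adjusted p = 0.0399).

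The next small-subunit genes in size missed the threshold. Rps18 differed by -0.45 (adjusted p = 0.0711), Rps21 by -0.43 (0.0518) and Rps3, which lines the entry of the messenger RNA, by -0.37 (0.0598). In each of these 3 the groups did not overlap. Rps6, the subunit protein phosphorylated by the S6 kinases, had levels of 7.77, 7.88 and 7.48 after PVBL and 7.79, 7.78 and 7.75 after sham surgery, so the groups overlapped, and it differed by -0.06 ± 0.14 (SE, n = 3 per group; not called). Rpsa, also described as a laminin receptor, differed by -0.25 (0.261), and Rps4x, encoded on the X chromosome, by -0.01 (0.941).

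In the large subunit, 1 of 43 genes was called, and the median was -0.18. Rpl36 had levels of 8.18, 8.58 and 8.22 after PVBL and 8.73, 8.75 and 9.02 after sham surgery. The groups did not overlap, with PVBL 2 nearest to sham 1. The difference was -0.51 ± 0.16 (SE, n = 3 per group; limma's adjusted p = 0.0455). Rpl11, Rpl35a and Rpl27a differed by -0.44 (adjusted p = 0.0819), -0.44 (0.0767) and -0.43 (0.0735). Rpl11 and Rpl5 are known for binding Mdm2, the ubiquitin ligase of p53, when ribosome assembly is disturbed. Rpl5 had levels of 6.10, 6.33 and 6.07 after PVBL and 6.41, 6.34 and 6.55 after sham surgery, and differed by -0.26 (adjusted p = 0.159).

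The largest positive differences in the large subunit proper were Rpl21 at 0.20 (adjusted p = 0.244) and Rpl3, which borders the catalytic centre, at 0.18 (0.452). The probe for Rpl21 was dim, with levels of -1.73 to -1.33. The brightest genes after Rps14 were Rpl41, the smallest ribosomal protein, at a difference of -0.18 (adjusted p = 0.399), Rpl10 at -0.27 (0.153), Rpl11, and Rpl9 at -0.33 (0.200). The stalk proteins recruit the elongation factors. Rplp0, the base of the stalk, had levels of 8.74, 9.07 and 8.70 after PVBL and 8.99, 8.93 and 9.20 after sham surgery. PVBL 2 lay inside the sham range, and the difference was -0.21 (adjusted p = 0.317). Rplp2 differed by -0.15 (0.484) and Rplp1 by -0.01 (0.973), so none of the 3 stalk genes was called.

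Several ribosomal proteins have a paralogue elsewhere in the genome, and some of these paralogues can take the place of the main form. None of the 4 tested paralogues was called, and their median was 0.03. Rpl22l1, the paralogue of Rpl22, had the highest difference of all 82. Its levels were 6.82, 7.11 and 6.86 after PVBL and 6.32, 6.65 and 6.73 after sham surgery. The groups did not overlap, but PVBL 1 lay just above sham 3. The difference was 0.36 ± 0.16 (SE, n = 3 per group; limma's adjusted p = 0.114). With 5 other settings (quantile, median and ribosomal-protein-median scaling, normexp and array weights) the gene was called, with differences of 0.60, 0.49, 0.52, 0.45 and 0.34. Rpl22 itself had levels of 7.32, 7.64 and 7.30 after PVBL and 7.81, 7.73 and 7.78 after sham surgery, and differed by -0.35 ± 0.14 (SE; adjusted p = 0.0849).

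The ratio of a paralogue to its parent within an array does not depend on the array's scaling, though it still compares different probes and its level is no ratio of molecules. The log2 ratio of Rpl22l1 to Rpl22 was -0.50, -0.54 and -0.45 on the PVBL arrays and -1.49, -1.08 and -1.05 on the sham arrays. All PVBL ratios were higher, and the mean ratio was 1.64-fold that of the sham arrays (difference 0.71 on the log2 scale). The log2 ratio of Rps27l, a p53 target, to Rps27 was -0.41, -0.45 and -0.93 after PVBL and -1.02, -1.02 and -1.51 after sham surgery. Those groups also did not overlap, with array 3 low in both, and the mean ratio was 1.51-fold higher. Rps27l alone differed by -0.14 (adjusted p = 0.622), with levels of 7.61, 7.92 and 7.17 after PVBL and 7.78, 7.72 and 7.60 after sham surgery.

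The log2 ratio of Rpl7l1 to Rpl7 was -6.88, -6.76 and -7.07 after PVBL and -7.27, -7.34 and -7.37 after sham surgery, again without overlap and 1.34-fold higher on average. Alone, Rpl7l1 differed by 0.20 (adjusted p = 0.391) and Rpl7 by -0.22. The ratio of Rpl36al to Rpl36a overlapped between the groups, with a difference of -0.15. An exact two-sided permutation test of 3 against 3 cannot go below p = 0.1. That value was reached by Rpl22l1, Rps27l and Rpl7l1 (0.133 after Benjamini-Hochberg adjustment over the 4 pairs), and Rpl36al gave 0.5. How many ratios of other gene pairs would not overlap was not counted, and the levels of 51.4% of all single genes did not. Each paralogue had only 1 tested probe, so no second probe could check its signal, and only the parent's probe could be varied. Over all tested probes of the parent, the difference in log2 ratio was 0.71 to 1.36 for Rpl22l1 and 0.59 to 0.65 for Rps27l. It was 0.42 to 0.47 for Rpl7l1 and -0.17 to -0.11 for Rpl36al. The value of 1.36 came from a dim second probe of Rpl22, described below.

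**Figure D2:**
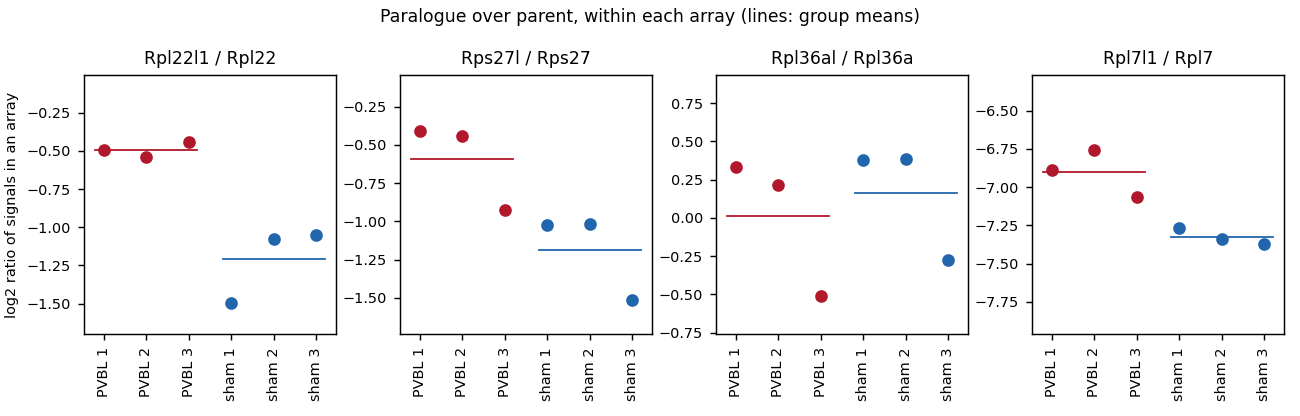
Log2 ratio of paralogue to parent signal (vertical axis, each panel centred on its own mean with the same span) on each of the 6 arrays (horizontal axis; PVBL red, sham blue), with lines for the group means. The groups are apart for Rpl22l1, Rps27l and Rpl7l1 and overlap for Rpl36al.

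Many ribosomal protein genes have processed copies in the genome that are nearly identical, so probes can also read those. The 82 genes had 167 tested probes. Fitted singly, 12 probes were lower and 1 higher, against 32.3% of 17524 named probes called and 17.2% lower. Of 51 genes with several tested probes, 37 had all differences of 1 sign, and the median range between a gene's probes was 0.0734. Rps27 was the only 1 of the 51 with every probe called, and its 4 probes gave -0.79 to -0.73 (limma's adjusted p from 0.00775 to 0.0133 over all named probes). For Rpl36, 2 of 3 probes were called. Rps14 had a single probe.

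Probes of the same gene did not always give the same value. The second probe of Rpl22 was far dimmer than the first, with levels of 2.45, 2.05 and 2.08 after PVBL and 3.26, 3.32 and 3.02 after sham surgery. Its groups did not overlap, and it fell by 1.00 on the log2 scale (limma's adjusted p = 0.00436), whereas the bright probe differed by -0.35. What the dim probe reads was not tested, since the probes' letters were not used here.

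**Figure D3:**
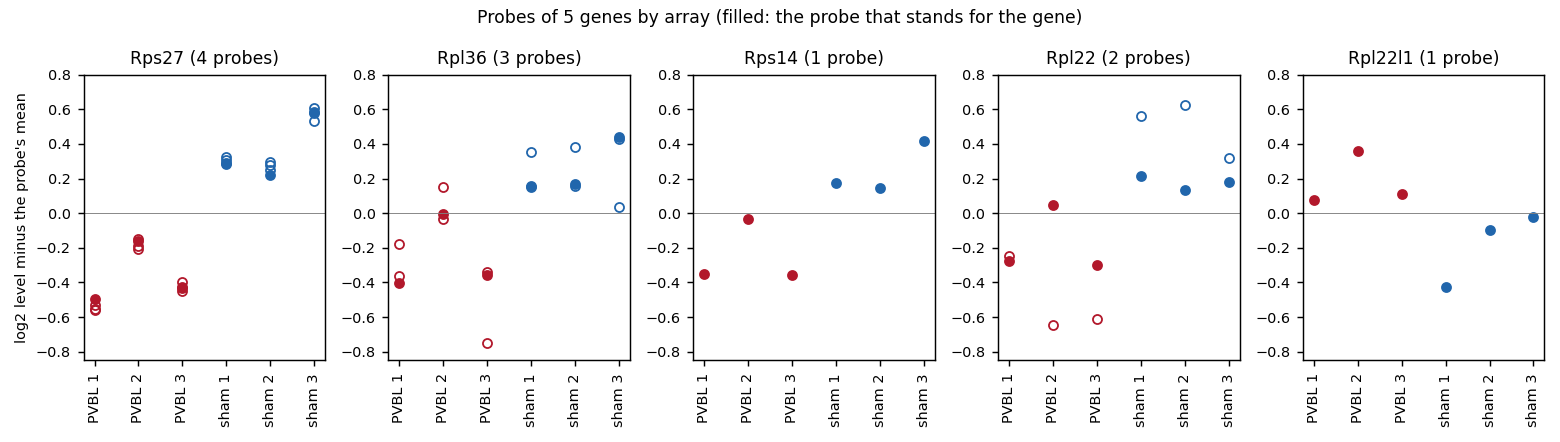
Log2 level of each probe minus that probe's mean over the 6 arrays (vertical axis) for 5 genes, by array (horizontal axis; PVBL red, sham blue), with the probe that stands for the gene filled. The 4 probes of Rps27 lie together on every array and are lower on all PVBL arrays.

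The 82 genes deviated together from array to array. Their median deviation from each gene's own mean was -0.14, 0.12 and -0.22 on PVBL arrays 1 to 3 and 0.05, 0.03 and 0.19 on sham arrays 1 to 3. PVBL 2 therefore lay above sham 1 and sham 2 and below sham 3. Of the 82 genes, 52 were lowest on PVBL 3 and 22 on PVBL 1, while 49 were highest on sham 3 and 26 on PVBL 2. Without PVBL 2 the median difference was -0.28 and 9 genes were called, all lower, where 28.8% of all genes were called. Without any other single array only Rps27 was called.

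The share of summed signal was taken over all 173 probes of the 85 genes matched to a probe, tested or not. It was 5.95%, 6.41% and 6.12% on the PVBL arrays and 5.88%, 5.96% and 6.06% on the sham arrays. The groups overlapped, with PVBL 1 below sham 2 and sham 3. This share needs no scaling and is a share of array signal, not of molecules. For a sense of the error within an array, a probe for Rpl23 spotted 10 times had a log2 SD of 0.0572 to 0.113.

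**Figure D4:**
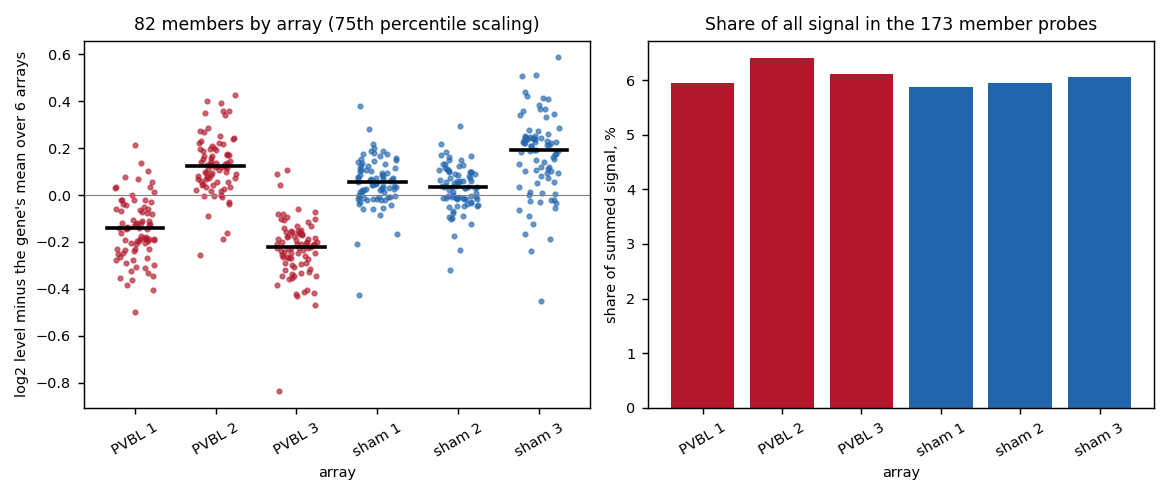
Left, log2 level of the 82 genes minus each gene's mean, by array, with 75th percentile scaling (PVBL red, sham blue, black lines for medians). Right, share of summed signal in the 173 probes of the 85 genes with a probe, in percent from 0. The left panel is low on PVBL 1 and 3 and high on PVBL 2 and sham 3, and the shares run from 5.88% to 6.41%.

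Whether the genes as a group lay above or below 0 depended on the scaling. With 75th percentile scaling the median was -0.18 (all genes -0.10), with median scaling -0.04 (0.03), with quantile scaling 0.11 (-0.04) and with scaling on spiked control RNA 0.25 (0.33). Genes above 0 numbered 12, 32, 64 and 75 of 82 in that order. Their median stayed 0.076 below that of all genes in the 3 settings that move a whole array by a constant, and lay 0.157 above it with quantile scaling. No direction is therefore given for the group. No gene of the 82 differed by 2-fold in any setting except the authors' deposited table, where 1 did.

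Rps27 was below 0 in every setting and was called in all except spike-in scaling, where it differed by -0.30 with an adjusted p of 0.744 and no ribosomal protein gene was called. It had the lowest difference of all in every setting but the one without a filter on dim probes, where it was next to lowest. Rpl36 and Rps14 were no longer called with quantile (-0.17 for Rpl36), median, spike-in or ribosomal-protein-median scaling. Both were also lost without the filter on dim probes, with the replicate number as a block, or without any single array other than PVBL 2. Quantile scaling called 5 genes higher (Rpl12, Rpl22l1, Rpl29, Rps12 and Rps20) and Rps27 lower.

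**Figure D5:**
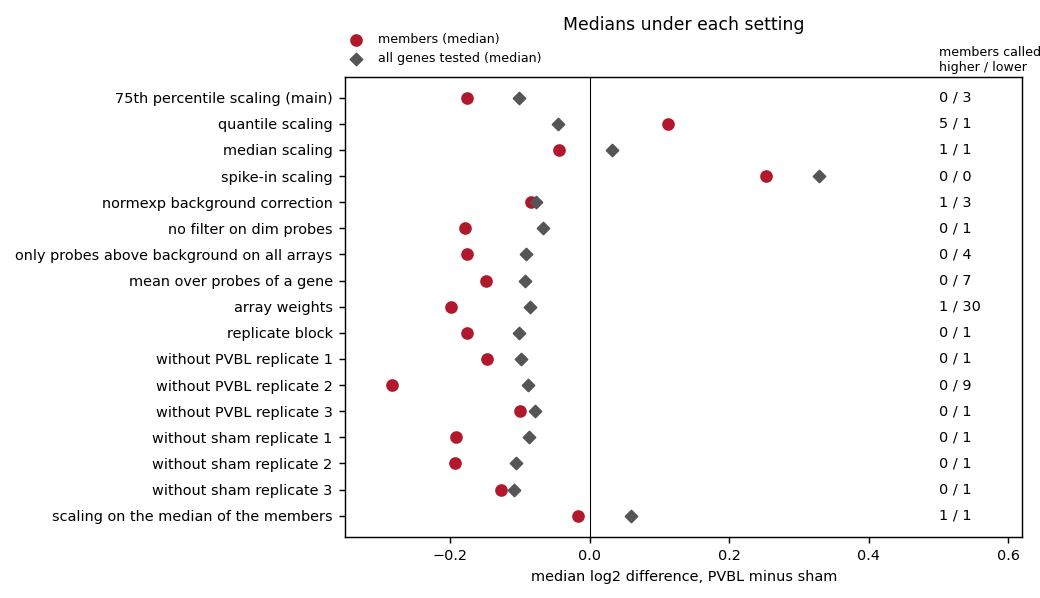
Median log2 difference, PVBL minus sham (horizontal axis), of the ribosomal protein genes (circles) and of all genes tested (diamonds) under each setting (vertical axis), with the number of ribosomal protein genes called higher and lower at the right. The circles run from -0.28 without PVBL replicate 2 to 0.25 with spike-in scaling.

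Fau and Rack1, which encode proteins of the cytosolic ribosome but do not carry an Rpl or Rps name, were looked at beside them. Fau, which encodes a small-subunit protein fused to a ubiquitin-like protein, had levels of 8.77, 8.19 and 8.61 after PVBL and 9.37, 9.42 and 9.41 after sham surgery. It fell by 0.88 on the log2 scale (adjusted p = 0.00889), with PVBL 2 the lowest array. Rack1, a signalling scaffold on the small subunit, differed by -0.13 (adjusted p = 0.484). Fau was not called with quantile or spike-in scaling or with scaling on the median of these 82 genes.

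Counts of the other lists of protein synthesis stand beside the background of 33.0% called, 15.1% higher and 17.8% lower. Some genes are in more than 1 of these lists, so the counts are not independent of each other. Of 19 elongation factors and other transcripts with a TOP motif, 3 rose and 3 fell, close to the background each way, with a median of -0.12. Eef1a1, which brings transfer RNA to the ribosome, fell by 0.55 (adjusted p = 0.0179), while Hnrnpa1 rose by 1.25, Vim, also a marker of mesenchymal cells, by 1.19 and the histone chaperone Nap1l1 by 0.71. Of 38 genes carrying an initiation factor's name, 3 rose and 4 fell, below the background each way, with a median of 0.03. The list included binding proteins of an initiation factor, and 1 of the 4 that fell was such a binding protein. Eif4a2, an RNA helicase, fell by 1.47, Eif1 by 0.86 and Eif5 by 0.74, and Eif6, which keeps the free large subunit from joining the small one, rose by 0.79. With spike-in scaling Eif4a2 kept its sign at -1.04 but, like Eif1, Eif5 and Eef1a1, was not called. Eef1a1 was also lost with quantile scaling and without any 1 sham array, Vim without sham 1 or sham 2, and Eif5 without PVBL 1 or sham 1 and with scaling on the median of the ribosomal protein genes. Leaving out 1 array gave 2 to 6 called in the first list, lowest without sham 1 or sham 2, and 4 to 8 in the second, lowest without PVBL 2, sham 1 or sham 2.

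Of 35 chaperones, importers and assembly factors of ribosomal proteins and ribosomal RNA, 15 (42.9%) rose and none fell, with a median of 0.43. They included Nop58, a core protein of the particles that methylate ribosomal RNA (1.45), Rrp12 (1.21), Mdn1 (1.17) and Nolc1 (1.09). Nap1l1, already counted among the transcripts with a TOP motif, was also 1 of the 15 that rose. Of 19 genes of RNA polymerase I and its factors, which make ribosomal RNA, 5 (26.3%) rose and none fell, with a median of 0.16. Taf1c rose by 1.24, Cd3eap by 0.84, Polr1e by 0.80 and Polr1a by 0.50. At an unadjusted p under 0.05, limma gave 19 higher and 1 lower in the assembly list and 7 higher and 1 lower in the polymerase list, where 19.7% of all genes were higher and 25.8% lower. Leaving out 1 array gave 9 to 19 called in the assembly list, lowest without sham 1 or sham 2, and 2 to 5 in the polymerase list, lowest without PVBL 1, sham 1 or sham 2. Of the genes named, Mdn1, Cd3eap, Polr1e and Polr1a lost their calls without at least 1 of the sham arrays. Mdn1 was also lost with normexp and without the filter on dim probes. Polr1e was also lost without PVBL 1, and Polr1a in several other settings.

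Of 20 genes that control the synthesis of ribosomal proteins or are linked to it, 3 rose and 4 fell, with a median of -0.20. That was 7 of 20, close to the 33.0% of all genes. Eif2ak3, a kinase that slows initiation under stress of the endoplasmic reticulum, rose by 1.02, and Mdm2, which Rpl5 and Rpl11 can bind, by 0.79. Tsc1, an inhibitor of mTOR signalling, fell by 1.02, and Gabpa, of the ETS family, by 0.72. Of 77 tested mitochondrial ribosomal protein genes, whose products serve the separate ribosomes of mitochondria, 1 rose (Mrps6, 0.75) and 4 fell, among them Mrps24 by 0.68, Mrps9 by 0.59 and Mrps27 by 0.46. Their median was -0.14. With spike-in scaling Tsc1, Gabpa and Mrps24 were not called. Mrps9 and Mrps27 lost their calls in most settings, each in 5 of the 6 that leave out 1 array, and the mitochondrial list had 2 to 10 called in those, most without PVBL 2. The control list then had 4 to 6, lowest without sham 2 or sham 3.

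Markers of the cells in the lobe were measured on the same arrays. None of the 6 hepatocyte markers was called, with a median of -0.33 and 2 lower at an unadjusted p under 0.05, and Alb differed by -0.28 and Ttr by -0.38. All 4 markers of proliferating cells rose. Cdk1, Ccnb1 and Mki67 rose by 5.07, 5.52 and 6.06 on the log2 scale, and Top2a, which was not well above background on any sham array, was at least 33.1-fold higher (adjusted p = 6.66e-06), taking for each sham array the lowest signal well above background. Their summed level relative to the 75th percentile was 24.0 to 32.0 after PVBL and 0.433 to 0.616 after sham surgery. Of 4 tested biliary markers 3 rose (Spp1 by 2.46, Krt19 by 1.52 and Krt7 by 1.44), and the summed level was 6.80 to 21.2 against 1.78 to 4.03. Of 7 stellate cell markers, Col1a1 and Acta2 rose by 2.21 and 1.75 and Lrat fell by 1.23.

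Of 8 lymphocyte markers 2 fell. Cd3g fell by 0.70, and Cd8a, not well above background on any PVBL array, was at least 1.63-fold lower by the same bound (adjusted p = 0.0165). The summed level was 9.87 to 11.3 against 12.6 to 14.1. Of 5 tested macrophage markers Marco rose by 2.52, and the other 4, not called, had differences of -0.57 to -0.35. Of 6 endothelial markers none was called (2 lower at an unadjusted p under 0.05). Without PVBL 3, 5 macrophage and 4 endothelial markers were called. Of 2 tested erythroid markers Alas2 fell by 1.09. Epcam did not pass the filter on dim probes, and Cd68 and Hbb-b1 were not matched to a probe. Lrat, Cd8a, Cd3g and Alas2 were not called in several settings, and no lymphocyte marker was called without sham 1 or sham 3. The part of these cells in the differences of the ribosomal protein genes was not tested.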

How the data were processed

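Per-spot intensity was taken from the deposited scanner files, made with Agilent Feature Extraction 10.7.3.1 per the file headers; the submitters' processing notes name version 9.1. The processed signal was already background-corrected, per the file headers. The authors' deposited value table holds log2 values for 7850 probes whose groups never overlap, so it was used only as an alternative.

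From the files, log2 processed signal was scaled to the 75th percentile of each array, without 3671 control spots and 115 to 201 outlier spots, and spots of a probe were averaged. Probes well above background on all arrays of a group were kept. RefSeq accessions named 26413 of 55681 probes (47.4%), and the brightest probe stood for a gene. Groups were compared with limma 3.58.1 (lmFit, eBayes, two-sided) in R 4.3.3, calling genes at a Benjamini-Hochberg adjusted p under 0.05 over all genes in the fit. The script was tested on simulated data. Normexp (offset 50) used the median signal, in place of the planned mean signal, which the files used here do not hold.

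Genes named were every called member, the 5 largest differences each way, the 5 brightest, paralogues with parents, stalk genes and Rpsa, and up to 4 called genes (else the 2 brightest) per other list. Rpl5, Rps6, Rpl28, Rack1 and the other members whose calls changed with the setting were added after values were seen. Some genes are not reported here by name. Members and lists were chosen with earlier results of these data known. Other scalings, filters, probe rules, weights, a replicate block and left-out arrays were tried.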

Additional observations from a re-analysis of the deposited data

How the results depend on the processing

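Quantile scaling called 6 ribosomal protein genes (5 higher and 1 lower, median 0.11), where 33.1% of all genes were called. Median scaling called 1559 genes lower and 1 ribosomal protein gene each way. Spike-in scaling called 1753 genes, 184 of them lower, no ribosomal protein gene (0 lower) and 1 of their probes, with a median of 0.25. Normexp called 1 ribosomal protein gene higher. Without a filter on dim probes 1582 genes were lower, 1 ribosomal protein gene was called (1 lower) and 6 of their probes. The mean over probes called 7, all 7 lower, where 33.5% of all genes were called. Array weights called 7816 genes, 57.5% of those tested (3328 higher, 4488 lower). Of the 82 ribosomal protein genes 31 were then called (1 higher, 30 lower), and 60 of their probes. The authors' deposited table, chosen on the difference, held 7 of these genes (1 higher, 6 lower). Scaling on the median of the 82 genes, chosen after seeing the data, called 1082 genes lower and 1 ribosomal protein gene each way, with a median of -0.016.

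With the replicate number as a block, 1 ribosomal protein gene (1 lower, Rps27 with an adjusted p of 0.0329) and 7 of their probes were called, and 3804 genes in all. Correlations of same-numbered arrays were 0.17, -0.063 and 0.19, so not every pair was above 0.1 and the numbers, which are also the slide columns, were not taken to pair the samples. Array 3 correlated best with its own number (0.185; others up to -0.063), and array 1 (0.167; others up to 0.176) and array 2 (-0.063; others up to 0.0952) did not. Leaving out each array in turn gave 2391 to 4782 called genes (1322 to 2220 higher, 1069 to 2562 lower). Of the ribosomal protein genes 1 to 9 were then called, 0 to 0 higher and 1 to 9 lower, with 6 to 21 of their probes, and their median was -0.28 to -0.10. The causes were not tested. Probe-level counts were not run for the mean over probes or the deposited table. With 3 arrays per group, precision is limited throughout.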
